A study of Mus musculus with 2 samples.

Results

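Early deuterosomal cells are the cells that carry the submitters' population name EarlyDeuterosomal, 1113 of the 16401 cells of the series. They came from cultures of the lateral ventricular wall of newborn mice (postnatal days 0 to 2), which held ependymal progenitors grown for 4 to 5 days and kept for 2 days in serum-free medium. Each of 2 libraries was made with droplet 3′ sequencing, library 1 from C57BL/6N mice (663 early deuterosomal cells) and library 2 from C57BL/6J mice (450 cells). All cells were untreated beyond the withdrawal of serum, and no genetic change is named. The groups compared are named populations of the same 2 libraries, with early deuterosomal cells set against progenitors II (1765 cells in library 1 and 747 in library 2) and against mid deuterosomal cells (880 and 353 cells), and, for genes particular to the stage, also against progenitors I, cycling progenitors, late deuterosomal cells, early multiciliated cells and multiciliated cells. A night of shaking before the serum was withdrawn served to remove neurons and oligodendrocytes, and cells were freed with trypsin. Values given in pairs are those of library 1 and then library 2.

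Multiciliated ependymal cells line the brain ventricles and build many motile cilia, each on a basal body that is a modified centriole. Most of these centrioles form around deuterosomes, ring-like bodies organised by the protein Deup1, outside the usual cycle in which a centriole pair duplicates once. Entry into the programme is known to depend on the geminin relatives Gmnc (GEMC1) and Mcidas (multicilin), which act with the transcription factors E2f4 and E2f5 and their partner Tfdp1, and on Ccno, a cyclin-like gene that lies beside Mcidas. Plk4, the kinase that starts centriole formation in cycling cells, also works at deuterosomes.

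The 250 bases before the annotated start of the 3 genes that mark these cells and of Plk4 are shown because Mcidas acts through E2F factors and all 4 genes were higher in early deuterosomal cells than in progenitors II. The sequences are from RefSeq on GRCm38.p6, read 5′ to 3′ on the strand of the gene, and the first listed start was taken for Deup1, which has 2. Capitals mark matches on either strand to the E2F letters TTCCCGC or to their variants, which are TTCGCGC, then also TTGCCGC and finally the form TTGGCGC. The windows are chr13:112993618-112993867 for Mcidas, chr13:112987552-112987801 for Ccno and chr3:40799701-40799950 for Plk4, all on the plus strand, and chr9:15627847-15628096 for Deup1 on the minus strand.
Mcidas: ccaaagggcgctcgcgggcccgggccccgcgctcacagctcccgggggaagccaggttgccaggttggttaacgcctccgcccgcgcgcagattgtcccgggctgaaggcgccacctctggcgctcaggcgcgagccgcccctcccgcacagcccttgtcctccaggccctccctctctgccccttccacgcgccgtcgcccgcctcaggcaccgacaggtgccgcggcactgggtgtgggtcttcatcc
Ccno: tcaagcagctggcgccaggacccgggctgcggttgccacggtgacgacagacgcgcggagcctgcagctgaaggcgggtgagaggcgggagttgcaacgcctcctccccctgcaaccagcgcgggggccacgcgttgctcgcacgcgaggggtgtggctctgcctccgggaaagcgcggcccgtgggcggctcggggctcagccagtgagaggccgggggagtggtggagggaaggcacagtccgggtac
Deup1: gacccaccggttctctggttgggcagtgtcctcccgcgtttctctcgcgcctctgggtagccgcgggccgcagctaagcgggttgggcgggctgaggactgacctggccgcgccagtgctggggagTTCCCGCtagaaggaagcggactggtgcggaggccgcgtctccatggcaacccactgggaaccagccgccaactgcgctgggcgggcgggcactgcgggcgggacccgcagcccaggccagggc
Plk4: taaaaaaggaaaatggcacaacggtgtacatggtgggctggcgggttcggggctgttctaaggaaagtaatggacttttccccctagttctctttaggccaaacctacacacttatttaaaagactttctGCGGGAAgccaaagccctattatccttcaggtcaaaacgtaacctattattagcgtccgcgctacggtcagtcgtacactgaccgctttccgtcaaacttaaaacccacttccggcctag
The Deup1 window held 1 match, which began at position -124 from the start, and the Plk4 window held 1 at position -120, on the other strand. The Mcidas and Ccno windows held none of these letters, which says nothing about binding of the factors. Over all windows of this length in the table, 7.97% of 27025 held a match, and among the genes tested below 13.7% of the 11895 with a window did. The match was present in 7 of 20 windows of deuterosome and procentriole genes, 18 of 43 of genes for the G1/S transition and replication, 6 of 53 of G2/M genes and 2 of 10 of the multiciliation regulators.

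Early deuterosomal cells made up 5.51% of library 1 (exact Clopper-Pearson 95% interval 5.11 to 5.94) and 10.3% of library 2 (9.41 to 11.2). Their median depth was 11585 and 14575.5 unique molecular identifiers (UMIs) per cell, with 3978 and 4499 genes detected. Progenitors II were slightly shallower (10184 and 12434 UMIs) and mid deuterosomal cells deeper (17984 and 20436 UMIs). Mitochondrial transcripts took a median of 3.96% and 5.64% of UMIs in early deuterosomal cells, against 4.53% and 6.15% in progenitors II. The 2 libraries shared 13 barcodes, 2 of them of early deuterosomal cells. Summed markers of microglia reached 5.75 and 6.70 CPM (counts scaled to a common total for each sum) in early deuterosomal cells, against 13374 and 15367 CPM in the microglia of the same libraries. Within early deuterosomal cells, other marker lists summed to more than the microglia list. Neuroblast markers summed to 37.6 and 110 CPM, against 3161 and 2749 CPM in neuroblasts. Markers of oligodendrocyte precursors summed to 41.7 and 49.1 CPM, against 1777 and 2546 CPM in those precursors. Oligodendrocyte markers summed to 221 and 199 CPM, against 8858 and 5976 CPM in oligodendrocytes.

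The population name was checked against its markers in cells thinned to 5000 UMIs, which left 635 and 443 early deuterosomal cells and removes the difference in depth. A UMI of Deup1 was found in 73.1% of early deuterosomal cells of library 1 (exact interval 69.4 to 76.5) and 72.7% of library 2 (68.3 to 76.8), against 13.8% and 9.78% of progenitors II. For Ccno the shares were 55.3% and 63.0% in early deuterosomal cells, against 5.49% and 6.66% in progenitors II. For Mcidas they were 34.3% and 32.5%, against 0.362% and 0.408%. Microglia, which should lack the 3 genes, showed Deup1 in 7.32% and 5.13% of thinned cells and Mcidas in 0.697% (2 of 287) and 2.56% (1 of 39). Their median depths were 13724 and 17534 UMIs before thinning. Mcidas was seen in 0 of 30 and 0 of 69 thinned neuroblasts and in 1 of 63 and 1 of 35 oligodendrocytes. The Mcidas share of progenitors II did not exceed that of microglia, but these cells are too few to tell whether it exceeded a background. All 3 genes were seen in 21.9% of early deuterosomal cells in each library, and none of them in 12.9% and 12.4%. Without thinning, Mcidas was detected in 54.4% and 56.0%, Ccno in 72.4% and 76.9% and Deup1 in 87.6% and 88.2% of early deuterosomal cells. None of the 3 genes peaked at this stage, since their shares in mid deuterosomal cells were 48.8% and 47.7% for Mcidas, 73.9% and 74.9% for Ccno and 97.7% and 99.1% for Deup1.

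For the comparisons, UMIs were summed over the cells of a population in each library and tested with edgeR's quasi-likelihood test, in 1 fit over 13 populations with the library as a block and Benjamini-Hochberg adjustment over 15877 genes. A gene is called higher or lower at an adjusted p under 0.05, and levels are CPM normalised by TMM factors. The 2 libraries are labelled as replicates but differ in substrain, so substrain and library cannot be told apart. The block takes up both, and p-values measure how far differences between populations vary between these libraries. The labels and file headers do not say how population names were assigned. If names rest on expression, the p-values of the genes that set them are too small, and the markers describe the population without adding evidence.

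The transcription factors and cofactors of multiciliation were mostly higher in early deuterosomal cells than in progenitors II. Of 14 regulators, 11 were higher and 1 was lower, against 16.9% and 14.5% of all genes tested, with a median log2 fold change of 1.38 against -0.04 over all genes, the same with Foxn4 set at the bound given below. Mcidas stood at 100 and 114 CPM in early deuterosomal cells and at 1.00 and 1.14 CPM in progenitors II. That is a log2 fold change of 6.67 ± 0.23 (SE), the largest of the named genes with UMIs on both sides (edgeR adjusted p = 6.8e-16). Ccno had 224 and 316 CPM in early deuterosomal cells, against 14.6 and 21.6 CPM in progenitors II. Myb, a transcription factor of early multiciliated differentiation and of cell cycle progression, had 424 and 483 CPM, against 45.4 and 44.4 CPM. Trp73, a p53 relative needed for ependymal cilia, had 35.6 and 44.4 CPM, against 2.65 and 2.56 CPM. In each of these genes both libraries of early deuterosomal cells lay far above both libraries of progenitors II.

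Foxn4, a forkhead factor of multiciliated cells known from frog epidermis, had no UMI in progenitors II of either library and 6.80 and 12.2 CPM in early deuterosomal cells, which is at least 96.6-fold higher when progenitors II are set to 3 counts over both libraries. Cdc20b, which lies in the same gene cluster as Mcidas and Ccno and works at deuterosomes, had 32.6 and 37.3 CPM, against 0.701 and 1.14 CPM in progenitors II (log2 fold change 5.30 ± 0.26). Foxj1, the main switch for motile cilia genes, was already present in progenitors II at 277 and 343 CPM and stood at 740 and 1143 CPM in early deuterosomal cells (1.59 ± 0.43, edgeR adjusted p = 0.013). Smaller rises were called for Gmnn, an inhibitor of replication licensing (1.16 ± 0.19), Tfdp1 (0.74 ± 0.12), the ciliary factor Rfx2 (0.61 ± 0.16) and E2f4 (0.35 ± 0.12). The call for E2f4 was lost with 6 of 9 alternative settings, and that for Rfx2 with 3. E2f5 (0.01 ± 0.12) and the ciliary factor Rfx3 (-0.05 ± 0.20) did not pass the test.

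Gmnc was the regulator that fell. It had 29.9 and 27.5 CPM in early deuterosomal cells and 48.6 and 40.8 CPM in progenitors II (log2 fold change -0.64 ± 0.14, edgeR adjusted p = 0.0013). In mid deuterosomal cells Gmnc was lower still, with 9.76 and 5.49 CPM, so that early deuterosomal cells stood 1.85 ± 0.18 above them on the log2 scale. The fall from progenitors II did not pass the test without the library block (adjusted p = 0.15), with equal cell numbers (0.45) or in cells of class G0 or G1 alone (0.079).

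**Figure D1:**
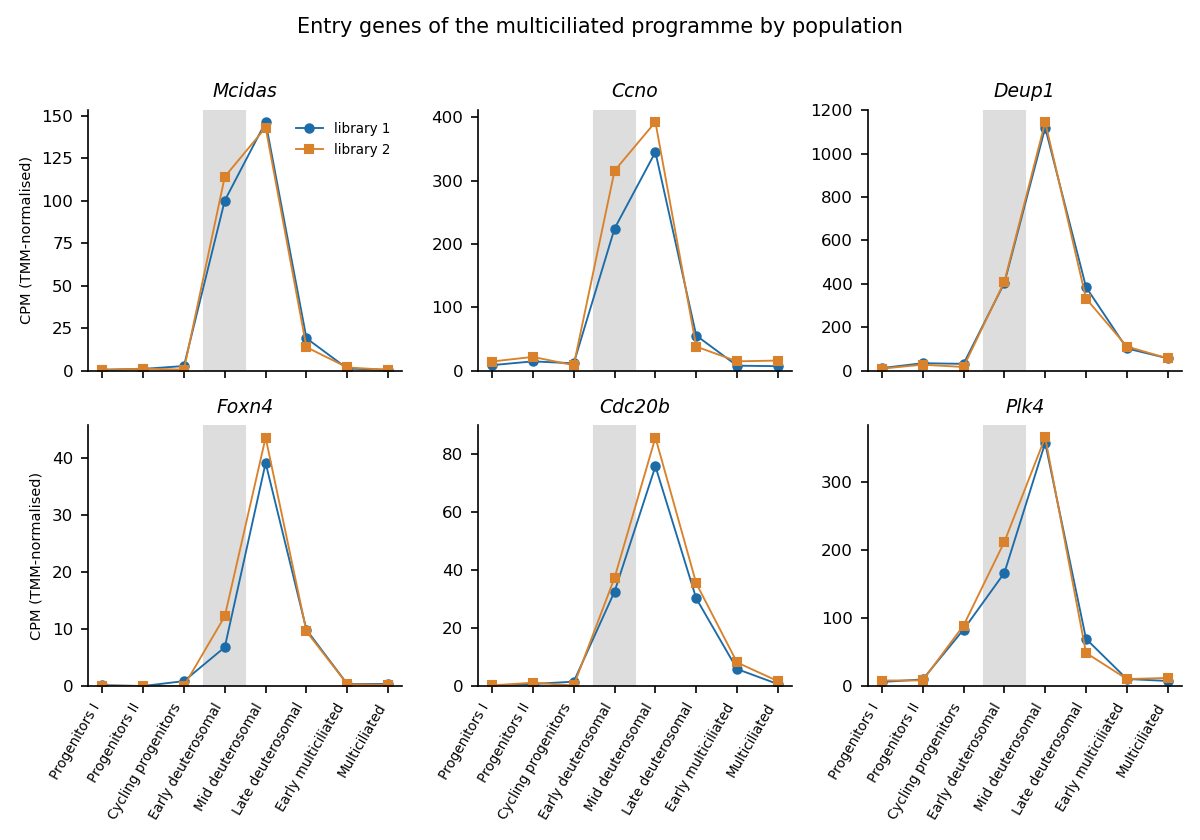
Levels of Mcidas, Ccno, Deup1, Foxn4, Cdc20b and Plk4 (y axis, TMM-normalised CPM) in the 8 populations ordered from progenitors to multiciliated cells (x axis), with a circle for library 1 and a square for library 2 and the early deuterosomal stage shaded. Mcidas stood at 100 and 114 CPM in early deuterosomal cells, and all 6 genes were at their highest in mid deuterosomal cells.

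Nearly all genes that build deuterosomes and procentrioles were higher. Of 25 members, 23 were higher in early deuterosomal cells than in progenitors II and none was lower, with a median log2 fold change of 1.90. That compares with 16.9% higher and 14.5% lower among all genes tested. Deup1 had 404 and 409 CPM, against 34.2 and 27.2 CPM in progenitors II (3.73 ± 0.21). Plk4 had 167 and 212 CPM, against 9.72 and 8.26 CPM (4.37 ± 0.21). Both genes stood over 10-fold above both libraries of progenitors II. Stil, which Plk4 phosphorylates to start a procentriole, had 34.3 and 46.7 CPM, against 0.751 and 1.14 CPM (5.46 ± 0.28). Cep152, the scaffold that brings Plk4 to centrioles, had 24.6 and 38.5 CPM, against 2.91 and 2.56 CPM (3.44 ± 0.20), and Sass6, the cartwheel protein, 44.8 and 60.1 CPM, against 12.4 and 12.2 CPM (2.06 ± 0.13). The last 2 were chosen after their values were seen. Cep63 (0.25 ± 0.12) and Ccdc78 (1.10 ± 0.49) did not pass the test. The number higher lay between 21 and 25 under the 9 alternative settings.

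Genes for centriole maturation and docking were higher in part. Hyls1, a centriole protein needed for cilium formation that stood outside the lists, had 177 and 185 CPM in early deuterosomal cells, against 5.36 and 5.79 CPM in progenitors II (log2 fold change 5.06 ± 0.23). Of 11 genes for centriolar satellites, the granules around centrosomes that carry centriole proteins, 6 were higher, led by Fgfr1op (2.49 ± 0.12) and Cep350 (1.70 ± 0.10). Of 19 genes for centrins and basal body docking, 12 were higher, led by Cby1 (1.59 ± 0.19) and Cep164 (1.08 ± 0.13), both part of the appendages that dock a basal body at the membrane. None of these satellite and docking genes was lower, and the medians over all members were 1.11 and 0.44. Over all genes tested, 16.9% were higher and 14.5% lower.

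Genes of the motile axoneme and its assembly were higher as well. Among all genes tested, 16.9% were higher in early deuterosomal cells than in progenitors II and 14.5% lower. Of 58 axoneme genes 32 were higher and none lower, with a median log2 fold change of 0.76. Of 15 tested genes for the assembly of dynein arms 14 were higher (median 0.82), and of 27 genes for intraflagellar transport 13 (median 0.57). Dnah3, an inner dynein arm heavy chain, had 6.25 and 4.75 CPM in early deuterosomal cells, against 0.351 and 0.380 CPM in progenitors II, and 58.3 and 57.0 CPM in mid deuterosomal cells. Both chains named here were low, and Dnah10, the other, had 6.58 and 2.71 CPM, against 0.601 and 0.854 CPM in progenitors II. With equal cell numbers neither chain passed the test (adjusted p = 0.52 for Dnah3 and 0.64 for Dnah10). Dnaaf1, a cytoplasmic factor for dynein arm assembly, had 22.6 and 18.7 CPM, against 4.61 and 3.61 CPM, and Zmynd10, of the same pathway, 124 and 119 CPM, against 29.2 CPM in both libraries. Traf3ip1 (1.09 ± 0.14) and Ift172 (0.98 ± 0.12), of the intraflagellar transport complex B, rose in both libraries. These counts depended on the settings. Over the 9 alternatives, between 13 and 49 axoneme genes, 7 and 15 assembly genes and 6 and 22 transport genes were higher. The fewest axoneme genes came at equal cell numbers and the fewest assembly and transport genes without the library block. Over all genes, between 1069 (equal cell numbers) and 3566 (only these populations in the fit) were higher.

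**Figure D2:**
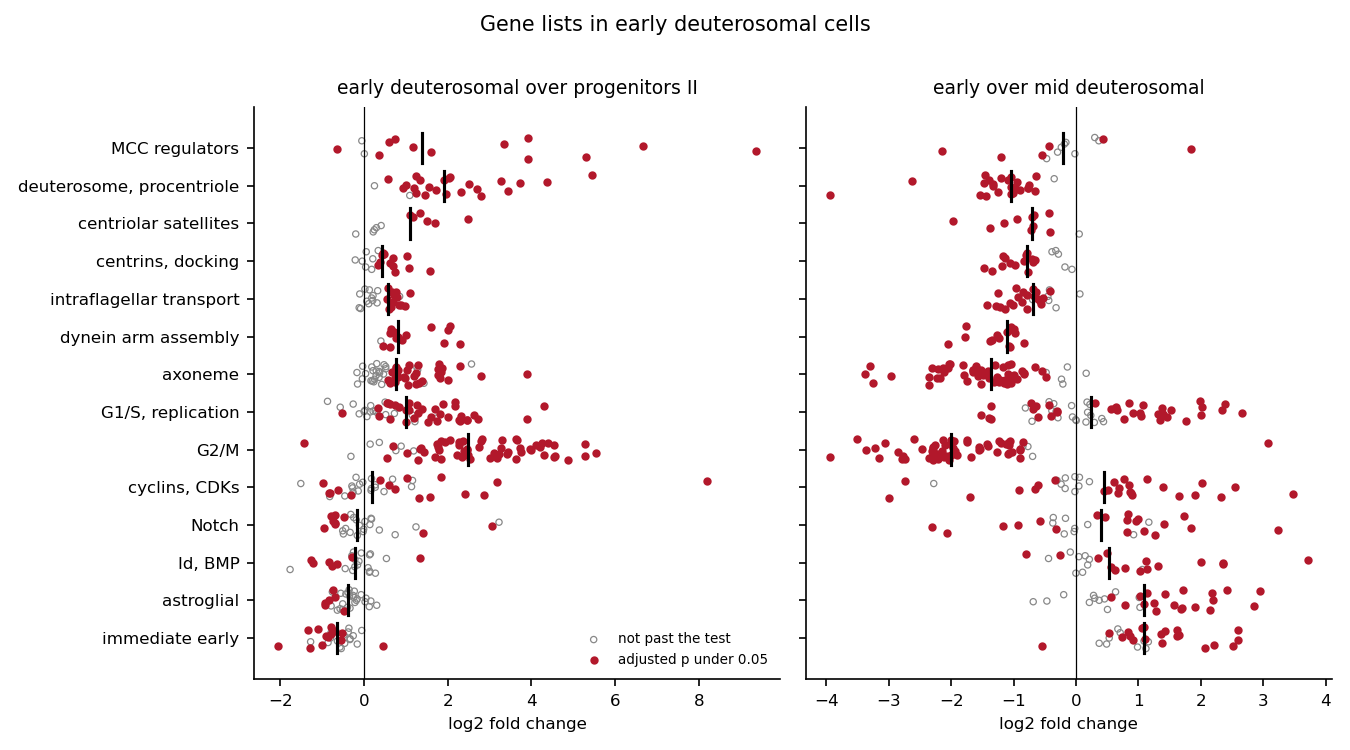
Log2 fold change (x axis) of every tested member of 14 gene lists (rows) in early deuterosomal cells over progenitors II (left) and over mid deuterosomal cells (right), with filled points for an adjusted p under 0.05, open points for the others and a bar at the median of the list. The median of deuterosome and procentriole genes was 1.90 over progenitors II and -1.05 over mid deuterosomal cells. The points farthest right among regulators and cyclins on the left are Foxn4 and Fbxo43, which had no UMI in progenitors II, so their place depends on the prior count.

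Genes named for the cell cycle were higher in early deuterosomal cells than in progenitors II, in most members of the G2/M and G1/S lists. Of 63 G2/M genes 56 were higher and 1 lower, with a median log2 fold change of 2.47, and with equal cell numbers 37 were higher. Of all genes tested 16.9% were higher and 14.5% lower, and with equal cell numbers 1069 genes were higher. Ckap2l, a spindle protein, had 83.2 and 117 CPM in early deuterosomal cells, against 2.30 and 1.80 CPM in progenitors II (5.53 ± 0.47). Nek2, a centrosome kinase, had 30.6 and 43.6 CPM, against 0.952 and 0.854 CPM (5.27 ± 0.25). Both were near absent from progenitors II, and so were the mitotic kinases. Aurka, a mitotic kinase at centrosomes, had 19.0 and 25.0 CPM, against 0.902 and 0.474 CPM (4.86 ± 0.30), and Plk1, a kinase of mitotic entry, 12.0 and 15.1 CPM, against 0.701 and 0.474 CPM (4.40 ± 0.31). Cdc20, an activator of the anaphase-promoting complex, had 66.7 and 84.0 CPM, against 3.56 and 2.66 CPM (4.54 ± 0.21). Melk (5.11 ± 0.37), a kinase of dividing progenitors, and Ndc80 (4.54 ± 0.44), a kinetochore subunit, were also among the 12 largest named rises, and Cdc25c, a phosphatase that activates Cdk1, had 3.40 and 2.71 CPM, against 0.0501 and 0.0949 CPM. Psrc1, a spindle protein, was the member that fell, with 6.03 and 6.51 CPM in early deuterosomal cells and 17.1 and 16.3 CPM in progenitors II (-1.42 ± 0.19).

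The G2/M genes were lower than at the next stage. Of the 63, 59 were lower and 1 was higher in early than in mid deuterosomal cells, against 28.2% lower and 20.8% higher among all genes tested. Ccnb2, a B-type cyclin, had 5.15 and 7.19 CPM in early deuterosomal cells, against 90.6 and 97.7 CPM in mid deuterosomal cells (log2 fold change -3.95 ± 0.20, edgeR adjusted p = 1.2e-12). Ube2c, the ubiquitin-conjugating enzyme of the anaphase-promoting complex, had 14.8 and 11.7 CPM, against 171 and 132 CPM (-3.51 ± 0.30). Ckap2l, Nek2, Aurka, Cdc20, Ndc80 and Plk1 were lower than in mid deuterosomal cells by 2.01 to 3.06 on the log2 scale.

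Genes of the G1/S transition were higher in part. Of 55 members 34 were higher in early deuterosomal cells than in progenitors II and 1 was lower, with a median log2 fold change of 1.01. Against mid deuterosomal cells 24 were higher and 12 lower. The shares of all genes tested were 16.9% higher and 14.5% lower against progenitors II, and 20.8% and 28.2% against mid deuterosomal cells. E2f8, a repressor among the E2F factors, had 13.9 and 23.3 CPM in early deuterosomal cells, against 1.25 and 1.04 CPM in progenitors II (3.90 ± 0.37). Mcm6, a subunit of the replicative helicase, was the member called lower, with 21.5 and 19.1 CPM, against 28.1 and 30.6 CPM in progenitors II (-0.52 ± 0.17), a call that 4 of the 9 alternatives did not keep. Mcm5 of the same helicase had 5.37 and 6.24 CPM, against 3.66 and 3.13 CPM (0.73, edgeR adjusted p = 0.056), while cycling progenitors had 91.3 and 89.1 CPM. Mcm5 and the E cyclins that follow were chosen after their values were seen.

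Among 35 cyclins, kinases, their inhibitors and other cell cycle genes such as Fbxo43, 11 were higher and 5 lower than in progenitors II. Over all genes 16.9% were higher and 14.5% lower, so the share lower was near that of all genes. The E-type cyclins, which act with Cdk2 at the G1/S transition, were above both neighbours. Ccne1 had 10.9 and 15.7 CPM in early deuterosomal cells, against 1.85 and 1.61 CPM in progenitors II and 3.32 and 3.57 CPM in mid deuterosomal cells. Ccne2 had 5.37 and 6.65 CPM, against 0.852 and 1.52 CPM in progenitors II and 0.688 and 0.137 CPM in mid deuterosomal cells. Both stayed below cycling progenitors, where Ccne1 had 30.0 and 33.0 CPM and Ccne2 67.5 and 64.4 CPM. E2f7, a repressor and relative of E2f8, had 69.1 and 91.9 CPM, against 6.91 and 11.4 CPM in progenitors II (log2 fold change 3.18 ± 0.15), and Fbxo43, an inhibitor of the anaphase-promoting complex known from meiosis, had 3.40 and 4.61 CPM against no UMI in progenitors II, at least 40.7-fold higher. E2f3 (-0.98 ± 0.20) and Ccng1, a p53 target (-0.82 ± 0.13), fell, though E2f3 did not pass the test with equal cell numbers (adjusted p = 0.68).

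**Figure D3:**
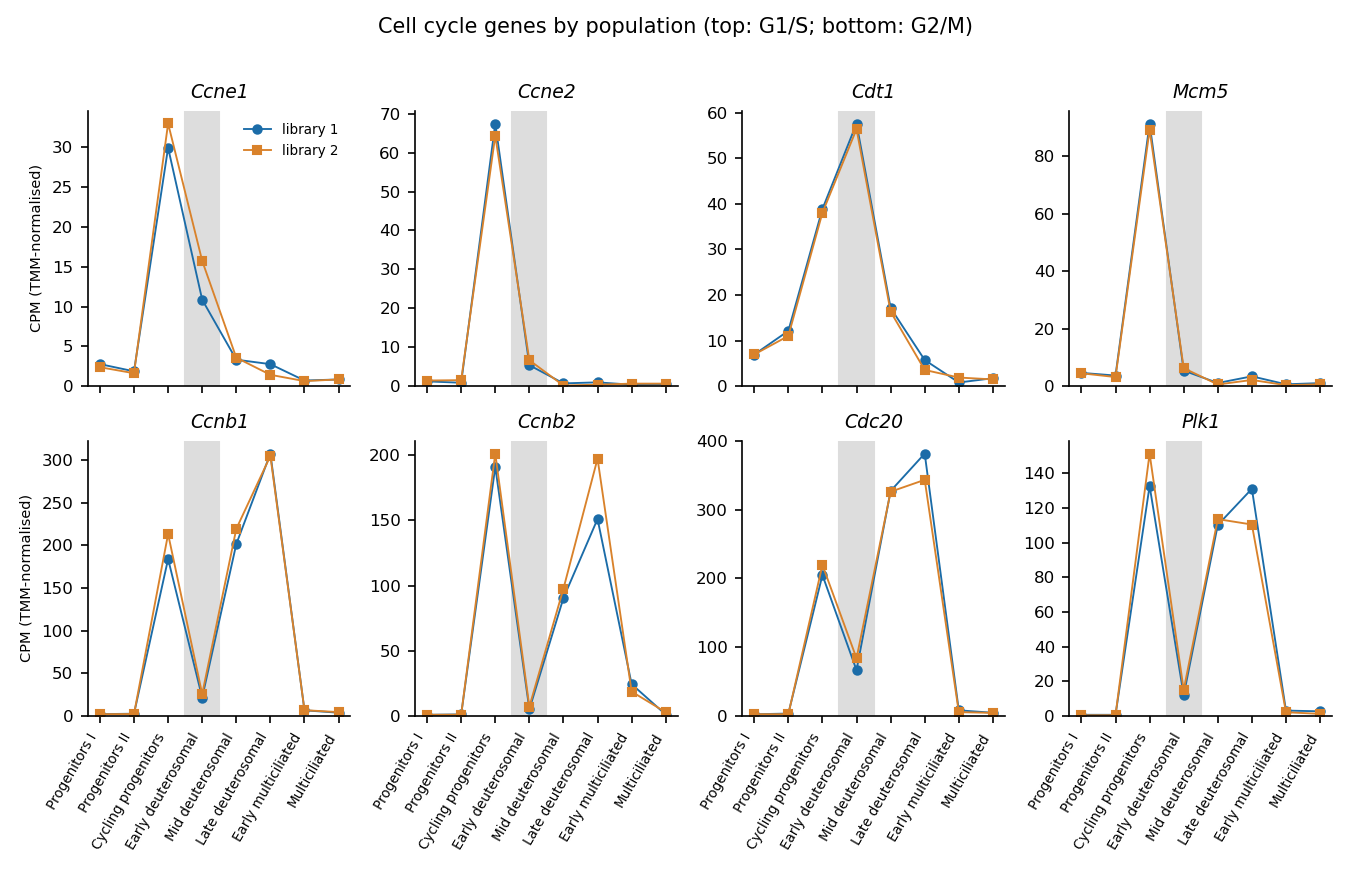
Levels (y axis, TMM-normalised CPM) of 4 G1/S genes (top, Ccne1, Ccne2, Cdt1 and Mcm5) and 4 G2/M genes (bottom, Ccnb1, Ccnb2, Cdc20 and Plk1) in 8 populations (x axis), with circles for library 1, squares for library 2 and the early deuterosomal stage shaded. Cdt1 was highest in early deuterosomal cells, while Ccnb2 stood at 5.15 and 7.19 CPM there and at 90.6 and 97.7 CPM in mid deuterosomal cells. Ccnb1 was, like Mcm5 and the E cyclins, chosen after its values were seen.

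The share of cells with a cycling class rose from progenitors II through early to mid deuterosomal cells, as most G2/M genes did. The G1/S and cyclin lists did not share the second step, with more members higher than lower in early than in mid deuterosomal cells. The deposited cell cycle class was G0 for 72.7% and 69.1% of early deuterosomal cells, G1 for 5.43% and 4.00%, S for 14.8% and 16.0%, S/G2 for 3.32% and 8.44% and G2/M for 3.77% and 2.44%. Classes S to G2/M together took 21.9% of early deuterosomal cells in library 1 (exact interval 18.8 to 25.2) and 26.9% in library 2 (22.8 to 31.2), against 0 of 1765 and 0 of 747 cells (exact upper limits 0.209% and 0.493%) of progenitors II and 96.5% and 97.7% of mid deuterosomal cells. How the classes were set is likewise unstated, and they may use the same transcripts. With cells of class G0 or G1 alone on both sides, 44 of the 63 G2/M genes, 31 of the 55 G1/S genes and 23 of the 25 deuterosome and procentriole genes were higher in early deuterosomal cells than in progenitors II. Over all genes, 1872 were higher in this setting, against 2691 without this restriction. The calls for Ccnb2 (1.01, edgeR adjusted p = 0.20) and Ube2c (1.38, adjusted p = 0.16) were lost in the G0 or G1 cells.

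Within early deuterosomal cells Mcidas, Deup1, Foxn4 and Plk1 were higher in cells of class S to G2/M (145 and 121 cells) than in cells of class G0 or G1 (518 and 329 cells), given as a description with no test. Mcidas had 176 and 196 CPM in the cycling classes and 78.8 and 80.3 CPM in G0 or G1 cells. Deup1 had 748 and 722 CPM, against 307 and 280 CPM. Both genes were over 2-fold higher in the cycling classes. Foxn4 had 19.7 and 28.2 CPM, against 3.29 and 5.47 CPM, and Plk1 30.7 and 39.2 CPM, against 6.85 and 4.88 CPM. Cdt1 differed less, with 69.1 and 60.6 CPM in the cycling classes and 53.8 and 55.3 CPM in G0 or G1 cells.

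**Figure D4:**
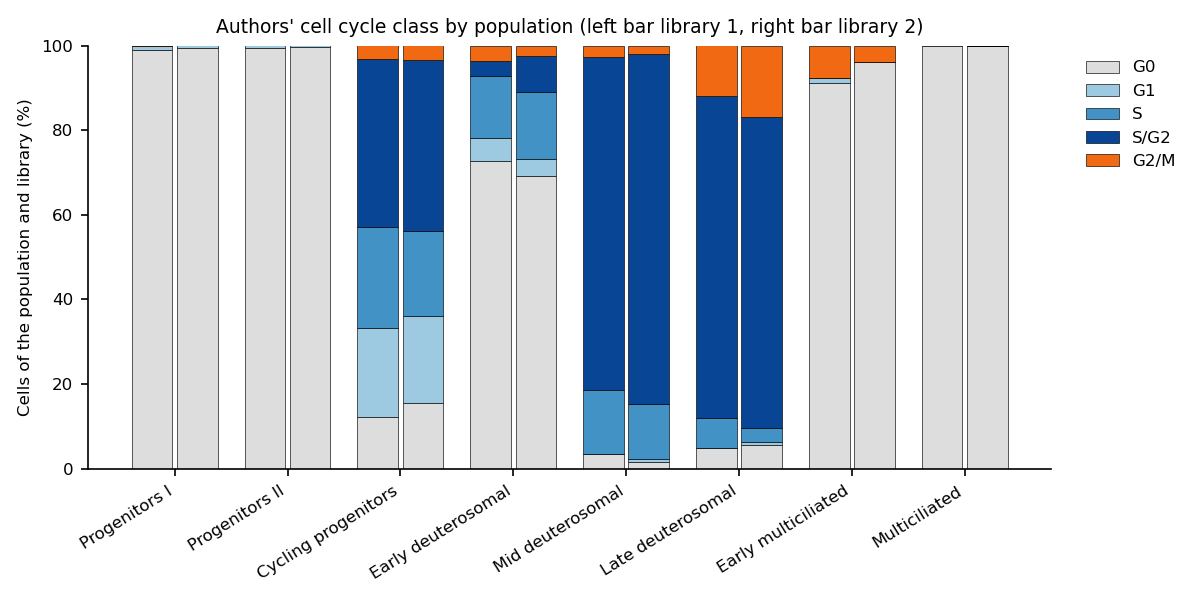
Share of cells (y axis, %) in each deposited cell cycle class (colours) for 8 populations (x axis), with library 1 as the left bar and library 2 as the right bar of each pair. Early deuterosomal cells were 72.7% and 69.1% G0, between progenitors II and mid deuterosomal cells.

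Fewer genes fell by a large factor than rose by one. Among genes past the test, 192 were over 8-fold higher in early deuterosomal cells than in progenitors II and 9 were over 8-fold lower, while 1037 were over 2-fold higher and 416 over 2-fold lower. Ccn2, a matricellular growth factor and target of YAP, had 129 and 109 CPM in early deuterosomal cells, against 501 and 480 CPM in progenitors II (log2 fold change -2.05 ± 0.48, edgeR adjusted p = 0.0058). S1pr3, a sphingosine-1-phosphate receptor, had 31.6 and 35.0 CPM, against 108 and 128 CPM (-1.82 ± 0.23). Pdgfrb, a receptor tyrosine kinase, had 12.2 and 11.7 CPM, against 38.5 and 35.7 CPM (-1.64 ± 0.17), and Adra2a, an adrenergic receptor, 13.8 and 7.60 CPM, against 39.7 and 25.5 CPM (-1.60 ± 0.20). The other named genes that fell were Fgfbp1, Gal3st1, the clock output factor Dbp, Klf15, the protease inhibitor Timp3, Rnf113a2, Mtss1 and Lrp1b, at -1.54 to -1.41. Without the library block the calls for Ccn2, Fgfbp1, Dbp and Timp3 were lost, at adjusted p values of 0.073, 0.066, 0.28 and 0.12. With equal cell numbers those for Fgfbp1 (0.27), Timp3 (0.070) and Lrp1b (0.068) were lost, and that for Timp3 also with DESeq2 (0.072) and in G0 or G1 cells (0.056).

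Few astroglial genes passed the test against progenitors II. Of 31 tested, 6 were lower in early deuterosomal cells and none higher, which is near the 14.5% of all genes that were lower, with a median log2 fold change of -0.38, and the number lower lay between 1 (without the library block) and 23 (with only these populations in the fit). Hopx, a homeodomain protein of radial glia, had 60.5 and 48.2 CPM, against 101 and 106 CPM (-0.93 ± 0.27), a call lost under 4 of the 9 alternatives, and Glul, glutamine synthetase, 138 and 110 CPM, against 248 and 219 CPM (-0.92 ± 0.16). Relative to mid deuterosomal cells 19 of the 31 were higher in early deuterosomal cells and none lower (20.8% and 28.2% among all genes). The median was 1.10 against -0.08 over all genes.

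Some signalling genes fell. Of 28 Notch genes 7 were lower and 2 higher than in progenitors II (14.5% and 16.9% among all genes), with a median log2 fold change of -0.17. Those with the largest falls were the target Hey2 (-0.95 ± 0.32) and Numbl, an inhibitor of the pathway (-0.78 ± 0.13), and those higher were the ligands Jag2 (3.07 ± 0.45) and Dll3 (1.41 ± 0.48), both at low levels, with Jag2 at 3.51 and 3.12 CPM in early deuterosomal cells, against 0.501 and 0.190 CPM in progenitors II. Of 24 Id and BMP genes 6 were lower and 1 higher, against the same shares of all genes, with a median of -0.22. Id3, an inhibitor of helix-loop-helix factors, had 133 and 83.4 CPM in early deuterosomal cells, against 277 and 237 CPM in progenitors II (-1.27 ± 0.29), and Fst, a binder of activins, fell by 1.22. Nog, a BMP antagonist, was the member that rose, with 34.6 and 62.7 CPM, against 14.0 and 24.7 CPM in progenitors II (1.34 ± 0.14). Without the library block 3 Notch genes and 1 Id and BMP gene were lower. The calls for Hey2 and Dll3 were each lost under 4 alternatives, that for Numbl with equal cell numbers (adjusted p = 0.21) and that for Id3 without the library block (0.14).

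Of 29 immediate early genes, which also respond to cell dissociation, 12 were lower and 1 higher than in progenitors II (14.5% and 16.9% among all genes), with a median log2 fold change of -0.63. The number lower lay between 1 (without the library block) and 23 (with only these populations in the fit). The summed level of this list was 1755 and 3282 CPM in early deuterosomal cells, against 2845 and 5466 CPM in progenitors II, so it was lower in early deuterosomal cells within each library but higher in library 2 than in library 1 in both populations. Myc had 4.06 and 6.92 CPM, against 13.1 and 13.9 CPM (log2 fold change -1.34 ± 0.22). Dnajb1, a heat shock cochaperone, was the member that rose (0.46 ± 0.12). The call for Dnajb1 was lost without the library block (adjusted p = 0.13) and with equal cell numbers (0.28). The 6 markers of fibroblasts and mural cells, of which 3 were tested and Pdgfrb was lower, summed to 18.6 and 23.1 CPM in early deuterosomal cells, against 45.4 and 48.1 CPM in progenitors II, with Lum at 0 in both populations. The 4 endothelial markers summed to 16.5 and 19.1 CPM, against 27.8 and 51.9 CPM, with Cldn5 and Cdh5 at 0 in both populations. Kdr, the only one of them tested, carried nearly all of that sum and fell by 1.12, a call lost without the library block (adjusted p = 0.072). No marker of neuroblasts, oligodendrocyte precursors, oligodendrocytes or microglia passed the test. The part of dissociation stress or of other cells in the falls was not tested.

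Between early and mid deuterosomal cells 3303 genes were higher in early cells and 4477 lower. Igfbp5 led the first group. It is an insulin-like growth factor binding protein and had 824 and 991 CPM in early deuterosomal cells, against 29.4 and 23.7 CPM in mid deuterosomal cells (log2 fold change 5.10 ± 0.70), while it did not pass the test over progenitors II (-0.95 ± 0.58). Cxcl10, a chemokine (4.47 ± 0.76), Elobl (4.08 ± 0.59), the natriuretic peptide Nppc (4.03 ± 0.35), Angpt1, a ligand of Tie2 (3.86 ± 0.28), and Id3 (3.72 ± 0.38) followed. With equal cell numbers Cxcl10 was at -0.63 and past no test. Igfbp5 was called lower than in progenitors II with only the 8 lineage populations in the fit (edgeR adjusted p = 0.0015). The same call was made after thinning (0.015) and with only these 2 populations in the fit (3.2e-15). Crip3 had 7.24 and 4.61 CPM in early deuterosomal cells, against 302 and 167 CPM in mid deuterosomal cells (-5.28 ± 0.33), and BC051019 (-4.03 ± 0.25), Ccnb2, Hpgd, a prostaglandin dehydrogenase (-3.83 ± 0.30), Ube2c and Dnah3 (-3.37 ± 0.25) were the other named genes lower in early cells. All 24 called deuterosome and procentriole genes, all 15 dynein assembly genes and 53 of 58 axoneme genes were lower in early than in mid deuterosomal cells. Of all genes tested, 28.2% were lower.

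Mcidas was lower than in mid deuterosomal cells by a small step, at 100 and 114 CPM in early and 146 and 143 CPM in mid deuterosomal cells (log2 fold change -0.43 ± 0.13, edgeR adjusted p = 0.0084), and the call was lost with DESeq2 (adjusted p = 0.41), without the library block (0.18) and at equal cell numbers (0.051). Ccno (-0.47 ± 0.23, adjusted p = 0.12), Myb (-0.19 ± 0.22), Trp73 (0.30 ± 0.15) and Foxj1 (-0.29 ± 0.42) did not pass the test. After thinning, Ccno (edgeR adjusted p = 0.0093) and Foxj1 (0.038) were called lower. With only the 8 lineage populations in the fit, Foxj1 was called lower (0.0086) and Trp73 higher (0.019). Trp73 was also called higher with DESeq2 size factors (0.049). Deup1 was lower, with 404 and 409 CPM in early and 1120 and 1146 CPM in mid deuterosomal cells (-1.48 ± 0.18), and so was Foxn4 (-2.15 ± 0.22).

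Genes particular to the stage were few. A gene was called stage-high when it was higher than in each of the other 7 populations of the lineage at an adjusted p under 0.05, and 50 of 15877 genes (0.315%) met this, while 5 (0.0315%) were stage-low. Among the comparisons not described above, early deuterosomal cells had 21.9% of genes higher and 20.4% lower than progenitors I, 19.0% and 16.1% against cycling progenitors, 17.8% and 20.7% against late deuterosomal cells, 21.9% and 23.0% against early multiciliated cells, and 22.5% and 23.1% against multiciliated cells. By the same stage rule cycling progenitors had 842 stage-high genes and mid deuterosomal cells 1130, but progenitors II 6 and late deuterosomal cells 36. The population nearest in level was mid deuterosomal cells for 26 of the 50 genes, cycling progenitors for 9 and progenitors II for 7. Only 15 of the 50 were over 2-fold above the nearest population. The count was 30 with DESeq2's Wald test, 15 without the library block and 18 with equal cell numbers, of which 28, 15 and 17 were among the 50.

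Cdt1 and Dtl, which act on replication licensing, were stage-high and were second highest in cycling progenitors. Cdt1, a licensing factor that loads the replicative helicase, stood at 57.7 and 56.4 CPM in early deuterosomal cells, 38.9 and 38.1 CPM in cycling progenitors, 17.1 and 16.3 CPM in mid deuterosomal cells and a mean of 11.6 CPM in progenitors II. Dtl, the ubiquitin ligase adaptor that targets Cdt1 for destruction, had 99.7 and 113 CPM in early deuterosomal cells, against 72.1 and 78.6 CPM in cycling progenitors, 59.0 and 64.9 CPM in mid deuterosomal cells and 11.5 and 13.3 CPM in progenitors II. Cdt1 and Dtl thus exceeded dividing progenitors in both libraries, while Mcm5 and Mcm6 did not.

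The margin over the nearest population was 0.57 for Cdt1 and 0.49 for Dtl on the log2 scale. It was under 1 for the other stage-high genes described here, so the 15 genes over 2-fold above it are not among them. Of the 50 stage-high genes, 21 passed the filters of level, direction and name by which genes were named. Pnpla2, a triglyceride lipase, had 44.5 and 52.6 CPM in early deuterosomal cells, against 26.5 and 25.7 CPM in progenitors II (log2 fold change 0.89 ± 0.10). Satb1, a chromatin organiser, had 43.1 and 64.4 CPM, against 31.4 and 30.1 CPM in progenitors II, and Gadd45b, a stress response gene, 170 and 146 CPM, against 113 and 89.7 CPM. Rgs20, a regulator of G protein signalling, had 95.2 and 110 CPM, against 61.5 and 72.9 CPM in mid deuterosomal cells, and Pmp22, a myelin membrane protein, 487 and 564 CPM, against 335 and 356 CPM. C1ql1, Npas1, Pik3cb and Rasl11a were at 0.48 to 0.56 above the nearest population on the log2 scale. For C1ql1 the call against mid deuterosomal cells was lost with 5 of 8 alternatives, and for Rasl11a that against progenitors II with 5 of 9. The call for Npas1 against mid deuterosomal cells was lost with DESeq2 (adjusted p = 0.12) and without the library block (0.088). Pik3cb lost its call against progenitors II without the block (0.059) and with equal cell numbers (0.12), and that against mid deuterosomal cells without the block (0.051). Nog, from the BMP list, was also stage-high, at 0.36 over mid deuterosomal cells, a call lost without the block (0.37) and with equal cell numbers (0.12).

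**Figure D5:**
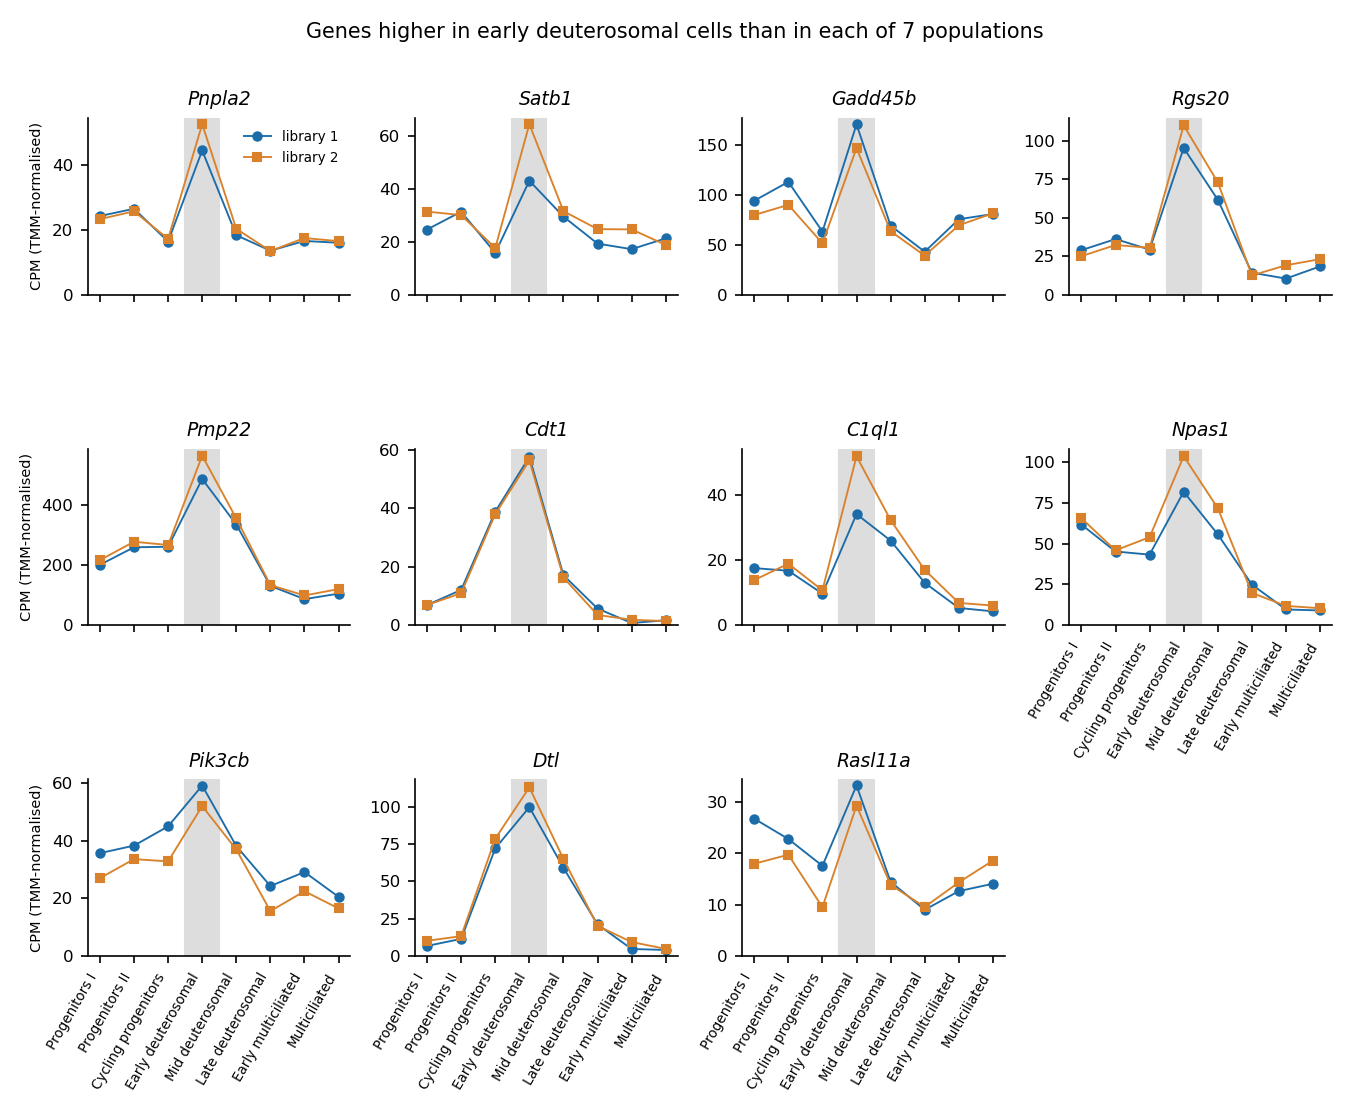
Levels (y axis, TMM-normalised CPM) of 11 named stage-high genes in 8 populations (x axis), ordered by their margin over the nearest population, with circles for library 1, squares for library 2 and the early deuterosomal stage shaded. Cdt1 stood at 57.7 and 56.4 CPM at this stage, and Cdt1 and Dtl were second highest in cycling progenitors.

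The 5 stage-low genes were Angptl2, Slc12a8, Gtf2ird1, Veph1 and Sptssa, of which the rule names Gtf2ird1 and Sptssa and the others were added because the count is small. Slc12a8, a solute carrier, had 2.08 and 2.31 CPM in early deuterosomal cells, against 5.91 and 4.74 CPM in progenitors II and 8.95 and 7.82 CPM in mid deuterosomal cells. Gtf2ird1, a transcription factor, had 8.44 and 11.1 CPM, against 12.8 and 17.4 CPM in progenitors II and 22.8 and 23.7 CPM in mid deuterosomal cells. Sptssa, a subunit of the first enzyme of sphingolipid synthesis, had 209 and 161 CPM, against 241 and 195 CPM in progenitors II (log2 fold change -0.24 ± 0.08), and this call was lost under 3 of 9 alternatives, that against mid deuterosomal cells under 5 of 8. The call for Gtf2ird1 against progenitors II was lost without the library block (adjusted p = 0.18) and with equal cell numbers (0.51). At equal cell numbers no gene was stage-low, and without the library block 1 was.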

How the data were processed

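The 2 single-cell RNA sequencing libraries were made with the 10x Genomics Single Cell 3′ v3 kit. The labels do not say how many litters or cultures stand behind each library. Per the submitters' processing notes, Cell Ranger 3 and 5.0.1 and the mm10 genome were used, and nothing ties a version to a library. The authors deposited unnormalised UMI counts for 32287 genes and 16401 cells, with a library number, population name and cell cycle class per cell. Neither the labels nor the headers state how names and classes were set or whether doublets were taken out, and here all cells were kept. Count rows carry no gene name and were joined to the gene table by row order, checked on marker genes.

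Counts were summed over the cells of each population and library. Requiring 20 or more cells per library left 13 populations and 26 sums, of 9222953 and 7313805 UMIs for early deuterosomal cells, 20463639 and 10592796 for progenitors II and 17563278 and 7728038 for mid deuterosomal cells. edgeR 4.0.16 (R 4.3.3) fitted a robust quasi-likelihood model with population and library terms after filterByExpr, with TMM normalisation (factors 0.739 to 1.20) and 12 residual degrees of freedom. SEs were taken from the fold change and the F statistic. DESeq2 1.42.0 served as an alternative, and the fit was tested on simulated data. Shares of cells used thinning to 5000 UMIs, which left out 607 cells, and exact intervals at 95%, which with floors of 3 counts cover counting error only.

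The block rests on populations of 1 library having been processed together. Deviations of same-library sums correlated at a median of 0.647 (lowest 0.510) over 28 pairs of lineage populations and 9495 genes.

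Gene members and lists were chosen with earlier results of these data known. Genes were named as the 12 largest changes each way against progenitors II and the 6 against mid deuterosomal cells, the 12 stage-high and up to 8 stage-low genes of largest margin, all with an average log2 CPM not under 4 and 1 direction in both libraries and without predicted, mitochondrial and ribosomal protein genes, and up to 2 members each way per list, with all regulators. Others are marked in the text, and 2 genes that the rule names are not reported here. Alternatives were other size factors, no low-count filter, DESeq2, fewer populations, no library block, thinning, 125 cells per sum and cells of class G0 or G1. Promoter windows came from RefSeq on GRCm38.p6.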

Additional observations from a re-analysis of the deposited data

Results flagged for a closer look

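Cells without a population name enter no comparison of the results. After thinning to 5000 UMIs, 0.639% of them in library 1 (13 of 2033 cells) had a UMI of each of Mcidas, Ccno and Deup1, and 2 of 552 did in library 2. Among microglia, which should lack these genes, 0 of 287 cells in library 1 (a limit of 1.05%) and 1 of 39 in library 2 had all 3. These are too few microglia to tell whether the unnamed cells exceeded a background. In progenitors II, 3 of 1657 cells in library 1 and 0 of 736 in library 2 had all 3. The share was 21.9% of early deuterosomal cells in each library and 37.5% and 38.7% of mid deuterosomal cells, so the set is not particular to early deuterosomal cells.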

How the results depend on the processing

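Of 1468 values of 92 named genes tested under alternatives, 1346 kept direction and side of the threshold, 107 lost the call, 13 gained one and 2 changed sign. Of 368 values with 1 library left out, which have no test, 303 moved by less than the spread between libraries and 65 by more. The changes of sign came at equal cell numbers, Crip3 over progenitors II (-0.42) and Cxcl10 over mid deuterosomal cells (-0.63). Of 360 list counts, 298 stayed within 1.5 times. The cause of these changes was not tested. The equal cell setting has fewer cells and UMIs and rests on a random draw of cells.

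Without the library (replicate) block, the genes higher and lower than in progenitors II numbered 1331 and 512 (2691 and 2300 with it), and those higher and lower than in mid deuterosomal cells 1982 and 2559 (3303 and 4477 with it). Equal cell numbers gave 1069 and 535 over progenitors II and 2013 and 2275 over mid deuterosomal cells. Against progenitors II, 1262 genes were lower in G0 or G1 cells alone and 3493 with only these populations in the fit. Stage-high genes numbered 30 with DESeq2, 15 without the block and 18 at equal cell numbers. Stage-low genes numbered 3 without the low-count filter, 9 with DESeq2, 13 with the 8 lineage populations, 1 without the block, 2 after thinning and 0 at equal cell numbers.

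The mean share of early deuterosomal cells with a UMI was 33.4% for Mcidas (55.2% unthinned, 21.5% at 2500 UMIs), 59.1% for Ccno (74.6%, 42.5%) and 72.9% for Deup1 (87.9%, 52.9%). With 1 library left out these shares spanned 32.5% to 34.3%, 55.3% to 63.0% and 72.7% to 73.1%. Leaving out a library leaves no residual degrees of freedom, so it gave no counts of genes. The G0 or G1 setting was not run against mid deuterosomal cells, which had 8 such cells in library 2.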
